A study of Mus musculus with 6 samples.

Results

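The mRNAs of 7 subunits of the GABA-A receptor (Gabra2, Gabra3, Gabra4, Gabra5, Gabrb1, Gabrb2 and Gabrd) were followed in mouse synaptoneurosomes (SN). These genes were given as a list of names and are 7 of the 19 GABA-A receptor subunit genes among the 21958 protein-coding genes of the deposited table. SN are pinched-off synaptic endings, prepared from homogenized tissue, in which local mRNAs and ribosomes can be studied apart from the cell body. They came from hippocampus and adjacent cortex of FVB mice aged 6 to 8 weeks, with tissue of several animals pooled and the SN then divided into aliquots. In the polyribosome group (3 libraries), NMDA receptors of the SN were activated at 37°C by 50 µM NMDA with 10 µM glutamate for 30 s, the antagonist APV was added at 120 µM, and after 20 min of incubation RNA was taken from the combined light and heavy polyribosomes of a sucrose gradient. In the total group (3 libraries), whole RNA was taken from unstimulated SN, which the methods describe as held on ice in the presence of cycloheximide, a blocker of translation. The groups therefore differed at once in stimulation, in warming and drug exposure before lysis, and in RNA fraction, and the parts of these factors cannot be told apart. As in any bulk RNA, fewer compartments of a cell type and less RNA in each cannot be told apart either.

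GABA-A receptors are pentameric chloride channels opened by GABA, the main inhibitory transmitter of the forebrain. Most synaptic receptors combine alpha and beta subunits with a gamma subunit, which supports clustering at the synapse and sensitivity to benzodiazepines. Receptors that carry the delta subunit, often with alpha 4 in the forebrain, lie outside the synapse and carry a tonic current at low ambient GABA. GABA itself binds between an alpha and a beta subunit, and the second membrane-spanning segment of each subunit lines the pore.

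The subunit genes are close relatives, so reads are assigned to one of them through the bases in which they differ. The stretch of 36 coding bases below, from the pore-lining segment, is shown because it is among the most conserved parts of the family. It was read 5′ to 3′ on the sense strand from the GENCODE vM21 transcripts of GRCm38 for 6 of the 7 genes, and capitals mark the 19 positions at which these 6 differ.

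Gabra2: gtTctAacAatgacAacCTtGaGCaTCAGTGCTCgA

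Gabra3: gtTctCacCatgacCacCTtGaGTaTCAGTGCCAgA

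Gabra4: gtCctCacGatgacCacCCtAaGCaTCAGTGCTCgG

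Gabra5: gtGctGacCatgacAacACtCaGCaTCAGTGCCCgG

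Gabrb1: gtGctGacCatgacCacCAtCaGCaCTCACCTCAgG

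Gabrb2: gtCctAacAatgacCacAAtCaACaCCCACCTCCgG

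Even here, Gabra3 differed from Gabra2 at 6 bases, Gabra4 at 7, Gabra5 at 8, Gabrb2 at 14 and Gabrb1 at 16. Over whole transcripts, the longest run of identical bases that any of the 7 genes shared with another subunit gene was 34, between Gabra2 and Gabrg3, and for the other 6 it was 20 to 25. Windows of 100 bases that also occurred in another gene made up 0% of the exons of 5 members, 0.192% of Gabra2 and 1.91% of Gabra5, the latter through an antisense transcript.

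The genes lie in the clusters typical of the family. In GRCm38, Gabra2 (chr5:70957597-71095849, minus strand), Gabra4 (chr5:71569749-71658308, minus strand) and Gabrb1 (chr5:71658113-72149037, plus strand) are neighbours. Gabrb2 (chr11:42419757-42629028, plus strand) lies in the cluster that holds Gabra6, and Gabra5 (chr7:57407690-57510009, minus strand) in that of Gabrg3. Gabra3 (chrX:72432681-72656848, minus strand) and Gabrd (chr4:155384980-155398112, minus strand) stand on other chromosomes. Gabra4 and Gabrb1 start head to head and share 46 exonic bp on opposite strands. Use of strand in the counting is not given in the sources used here, so reads from these shared bases are uncertain.

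The libraries held 5294482 to 7361580 counts for polyribosomes and 1044955 to 3738022 for total RNA. Each subunit was covered by 46 (Gabra5, total replicate 3) to 2815 counts (Gabrb1, polyribosome replicate 2) per library. Together the 7 mRNAs made up 0.120% to 0.148% of all counts on polyribosomes and 0.132% to 0.163% in total RNA. Levels are given below as CPM, counts scaled to library size with the TMM method, in the order of replicates 1, 2 and 3. A gene was called changed at an adjusted p under 0.01 in the quasi-likelihood test of edgeR, with p-values adjusted by Benjamini and Hochberg's method over the 12255 genes tested.

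Whether the RNA of each subunit differed between polyribosomes of stimulated SN and unstimulated total RNA was asked first. With group as the only term, 0 of the 7 subunits passed the threshold, where 3.07% of all genes tested did (87 higher and 289 lower on polyribosomes). At an unadjusted p under 0.05, the edgeR test placed 1 subunit higher (Gabrd) and 1 lower (Gabra4), where 15.4% of all genes tested were higher and 17.1% lower at that cut, and DESeq2 called 0 at the same adjusted threshold. Of the 9712 genes to which DESeq2 gave an adjusted p, it called 321 higher and 372 lower. The methods describe total and stimulated aliquots taken from one pool of SN. That equal replicate numbers mark aliquots of the same pool was inferred from the library titles and column names. With the replicate number as a block, the same test called 1 of 7 higher, Gabrd, and 1 of 7 lower, Gabra4. Under the block, 11.8% of all genes tested were called higher and 13.2% lower, so these counts are close to the background. The median log2 fold change of the 7 was -0.19 with group only, beside a median of 0.00 over all genes tested.

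**Figure D1:**
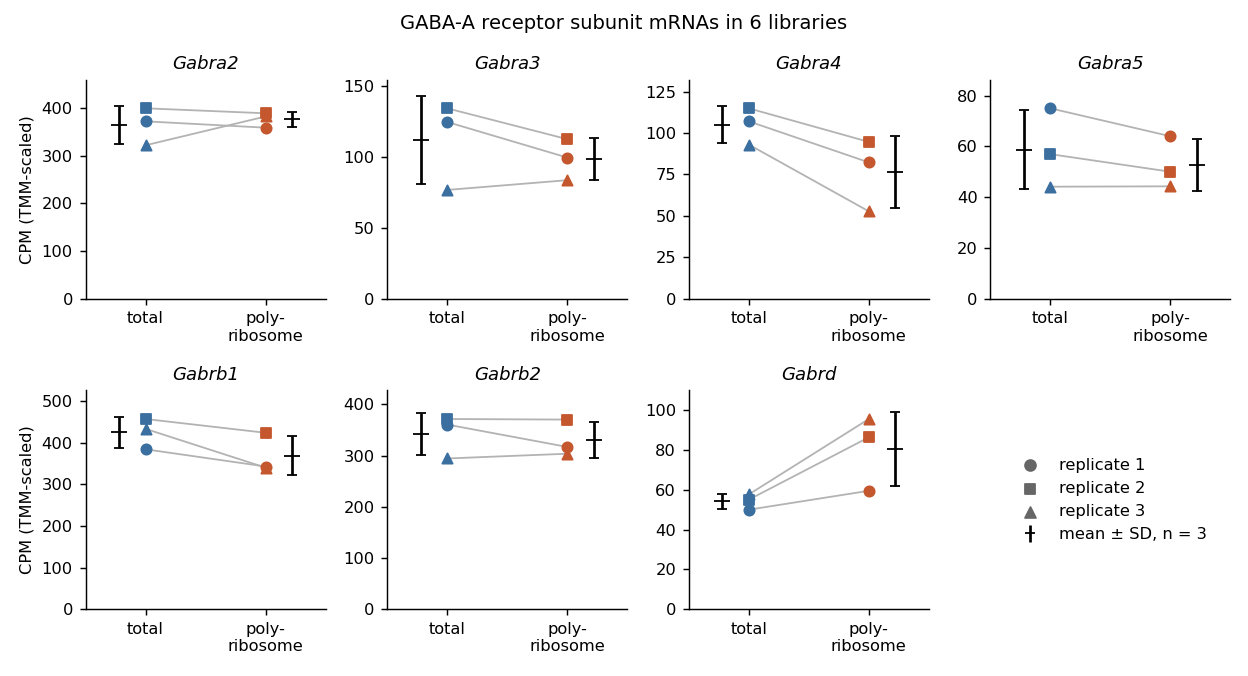
Level (CPM, TMM-scaled, linear axes from 0) of each of the 7 subunit mRNAs in total RNA of unstimulated SN (blue) and polyribosome RNA of stimulated SN (red). Lines join libraries of the same replicate number, and black marks give the mean ± SD of 3 libraries. For Gabrd all 3 polyribosome libraries lie above all total libraries, and for every other subunit the groups overlap. For Gabra4 and Gabrb1 every line slopes down.

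Without a correction for base composition and length, the delta subunit mRNA showed the largest difference of the 7. With block and offset, described further on, it was at 0.18 and Gabra2 at 0.60 on the log2 scale. Gabrd, which encodes the subunit typical of extrasynaptic receptors, was measured at 59.4, 86.2 and 95.3 CPM on polyribosomes and at 49.9, 54.9 and 57.5 CPM in total RNA. All polyribosome libraries lay above all total libraries, though polyribosome replicate 1 did so by a small margin. Gabrd was the only one of the 7 whose groups did not overlap in this direction, in which 17.4% of all genes tested did not overlap, and 0 of the 7 did so in the lower direction, beside 18.9% of all genes.

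The log2 fold change of Gabrd was 0.58 (SE 0.19), with an unadjusted p of 0.00957 and an adjusted p of 0.0564 in edgeR's quasi-likelihood test. DESeq2 gave an adjusted p of 0.0501. The pairs of equal replicate number differed by 0.25, 0.65 and 0.73 on the log2 scale, all in the same direction. With the replicate block the log2 fold change was 0.52 (SE 0.13) at an adjusted p of 9.0e-04.

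Among the alpha subunits, which form the GABA site with beta and set much of the drug sensitivity of the receptor, Gabra4 stood furthest from 0 with group only and with the block, but not with block and offset, where it was at -0.11. Gabra4, the usual forebrain partner of delta, was measured at 82.2, 94.6 and 52.7 CPM on polyribosomes and at 107, 115 and 93.0 CPM in total RNA. Each polyribosome library was below the total library of its number, and the groups overlapped only in that polyribosome replicate 2 lay just above total replicate 3. The log2 fold change was -0.46 (SE 0.20), with an unadjusted p of 0.0386 and an adjusted p of 0.131 in the edgeR test. With the replicate block it was -0.45 (SE 0.13) at an adjusted p of 0.00265, and the pairs differed by -0.38, -0.28 and -0.82. Polyribosome replicate 3 carried much of this difference, since without it the group-only value was -0.26.

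Gabra2, a synaptic alpha subunit abundant in hippocampus, was measured at 359, 389 and 383 CPM on polyribosomes and at 372, 399.9 and 322 CPM in total RNA. The ranges covered each other, and the log2 fold change was 0.04 (95% interval -0.31 to 0.39). Gabra3, a further synaptic alpha subunit, had 99.6, 113 and 83.6 CPM on polyribosomes and 125, 134 and 76.7 CPM in total RNA. Its total libraries spread widely, replicate 3 being the lowest of all 6, and the log2 fold change was -0.21 (95% interval -0.64 to 0.22).

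Gabra5, the alpha subunit of many extrasynaptic receptors of hippocampal pyramidal cells, had 64.0, 50.0 and 44.3 CPM on polyribosomes and 75.0, 56.9 and 44.1 CPM in total RNA. In both groups replicate 1 was highest and replicate 3 lowest, and the groups overlapped, with a log2 fold change of -0.19 (95% interval -0.63 to 0.25). The intervals of Gabra2, Gabra3 and Gabra5 with group only therefore include 0. With the block they were narrower, at -0.20 to 0.29 for Gabra2, -0.44 to 0.06 for Gabra3 and -0.43 to 0.10 for Gabra5, and also included 0.

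The beta subunits supply the other face of the GABA site and are needed for assembly and surface delivery. Gabrb1 was measured at 343, 424 and 340.3 CPM on polyribosomes and at 384, 457 and 433 CPM in total RNA. Each polyribosome library was below its total partner but the ranges overlapped, and the log2 fold change was -0.20 (SE 0.17, adjusted p = 0.439 in the edgeR test). Gabrb2, the partner of the most common synaptic receptor type, was measured at 317, 370.2 and 304 CPM on polyribosomes and at 361, 371 and 294 CPM in total RNA. Its values were nearly superimposed between the groups, with a log2 fold change of -0.05 (95% interval -0.42 to 0.31).

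Some of these values changed sign or call when base composition and length entered the fit. Gabrd has the most GC of the 7 (56.8%) and the shortest transcript (1921 bp), while Gabra2 (38.4% GC, 5852 bp) and Gabrb1 (40.9% GC, 13737 bp) lie at the other end. The medians over the genes tested were 50.3% GC and 3413 bp. With GC content and transcript length added as an offset to the replicate block, the log2 fold change of Gabrd was 0.18 (adjusted p = 0.270) and that of Gabra4 was -0.11 (adjusted p = 0.513), so neither was called by the edgeR test.

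With block and offset, the edgeR test called 1 of 7 subunits higher, Gabra2, at a log2 fold change of 0.60 (SE 0.12, adjusted p = 9.4e-06), and 0 of 7 lower. With the offset but no block, Gabra2 was at 0.63 and was not called (adjusted p = 0.0304, edgeR). Only 1.72% of the genes tested had less GC than Gabra2, so its offset was fitted near the edge of the GC range. The offset fit called 9.08% of all genes tested higher and 7.21% lower. Gabrb1 moved from -0.20 to 0.36 (adjusted p = 0.0116, edgeR), and the median of the 7 from -0.16 under the block to 0.18. For Gabrb2 the value turned from -0.05 to 0.21 and for Gabra3 from -0.19 to 0.09, both short of the threshold. Gabra5 was at -0.06.

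**Figure D2:**
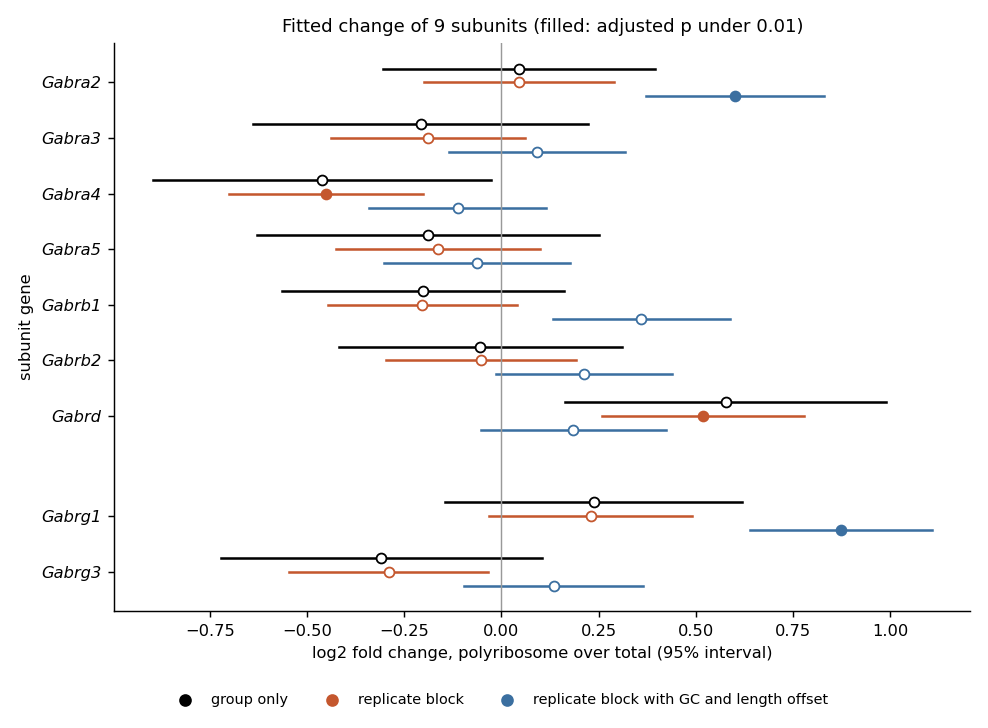
Fitted log2 fold change (polyribosome over total, with 95% interval) of the 7 subunits and of Gabrg1 and Gabrg3, with group as the only term (black), with the replicate block (red) and with the block and the offset for GC and length (blue). Filled points passed an adjusted p of 0.01. The block narrows the intervals of Gabra4 and Gabrd, and the offset moves both towards 0 and Gabra2 to 0.60.

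To compare the subunits with each other, CPM were divided by the length of the merged exons. In total RNA the order was Gabrb2 (83.4 ± 10.2 CPM per kb, SD, n = 3), Gabra2 (62.3 ± 6.73), Gabrb1 (30.9 ± 2.70), Gabra3 (29.0 ± 7.98), Gabrd (28.2 ± 2.02), Gabra4 (25.1 ± 2.64) and Gabra5 (19.7 ± 5.22). Gabrb2 stood above Gabra2, and Gabra2 above Gabrb1, with no overlap between libraries, whereas the ranges of the neighbours from Gabrb1 down to Gabra5 overlapped.

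On polyribosomes Gabrb2 (80.5 ± 8.59 CPM per kb, SD, n = 3) and Gabra2 (64.4 ± 2.71) again came first. Gabrd followed at 41.8 ± 9.72, above Gabrb1 (26.9 ± 3.46) in all libraries, so it took the 3rd place where it had the 5th in total RNA. Below it came Gabra3 (25.5 ± 3.75), Gabra4 (18.3 ± 5.14) and Gabra5 (17.7 ± 3.41), with ranges that overlapped between neighbours in this order. The level of Gabrb1 per kb rests on a single annotated transcript of 13737 bp, most of it non-coding.

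**Figure D3:**
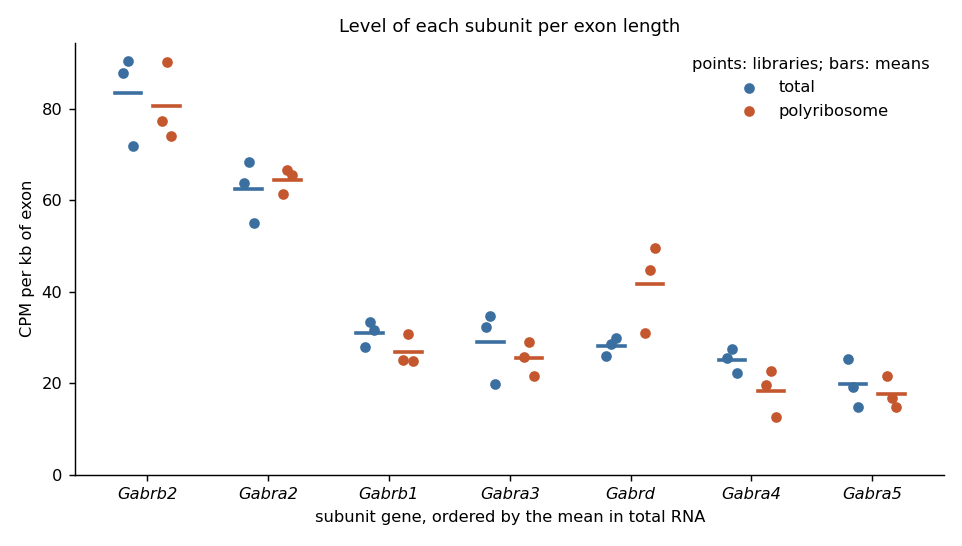
Level of each of the 7 subunits in CPM per kb of merged exon length (linear axis from 0) in the 3 total (blue) and 3 polyribosome (red) libraries, with bars at the means, ordered by the mean in total RNA. Gabrb2 and Gabra2 lead in both groups, and the polyribosome libraries of Gabrd (mean 41.8) stand above its total libraries (mean 28.2).

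Since Gabrd and Gabra4 differed in opposite directions, their ratio was taken in each library. This pair was chosen after its values were seen, so the ratio is a description without a test. The ratio was formed from CPM per kb of merged exon length. On the log2 scale Gabrd over Gabra4 was 0.65, 0.99 and 1.98 on polyribosomes and 0.02, 0.06 and 0.43 in total RNA. The groups did not overlap, the lowest polyribosome value lying 0.22 above the highest total value. Within pairs the ratio differed by 0.63, 0.93 and 1.55, a mean of 1.04 ± 0.47 (SD, n = 3), which is 2.05-fold. The normalization cancels in a ratio within a library, but the difference in GC content between the 2 transcripts does not.

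Of the other 12 GABA-A subunit genes, 5 were abundant enough to be tested. Gabrg3, a gamma subunit of limited distribution, had 59.7, 71.5 and 43.6 CPM on polyribosomes and 76.5, 76.7 and 61.4 CPM in total RNA, for which the log2 fold change was -0.31 (SE 0.19). Each of its polyribosome libraries was below its total partner, and the groups overlapped.

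Gabrg1, also a gamma subunit of limited distribution, had 72.0, 65.4 and 69.8 CPM on polyribosomes and 65.3, 63.6 and 42.2 CPM in total RNA. Its groups did not overlap, though only narrowly, and the log2 fold change was 0.24 (SE 0.18). None of the 5 tested genes passed the threshold with group only or with the block. The edgeR test gave 0 at an unadjusted p under 0.05 and DESeq2 gave 0 calls. With block and offset, Gabrg1 was called higher at a log2 fold change of 0.87 (adjusted p = 6.0e-11, edgeR), and Gabrg3 was at 0.13 (adjusted p = 0.430, edgeR). Only 0.114% of the genes tested had less GC than Gabrg1, so its offset was fitted at the edge of the GC range. The remaining 7 genes (Gabra6, Gabre, Gabrp, Gabrq, Gabrr1, Gabrr2 and Gabrr3) reached at most 19 counts in any library and were not tested, with Gabrp at 0 in all 6 libraries. Gabra6, a marker of cerebellar granule cells, held 17 counts over all 6 libraries.

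The subunits were set beside lists of other genes of inhibitory transmission, described here by their counts and medians. Of 12 genes of the inhibitory postsynapse, 0 were called with group only, while 4 were higher and 2 lower at an unadjusted p under 0.05 (backgrounds of 15.4% and 17.1% of all genes, which hold for the lists that follow too) and DESeq2 called 0. The DESeq2 background for all lists was 321 higher and 372 lower of 9712 genes. The median log2 fold change of the 12 was -0.04. With the block 4 were called higher and 2 lower, on the same backgrounds of 11.8% and 13.2%. Nlgn2, the neuroligin of inhibitory synapses, was at 493 ± 20.3 CPM on polyribosomes and 372 ± 35.3 CPM in total RNA (SD, n = 3), a log2 fold change of 0.42 (adjusted p = 0.00493, edgeR) under the block and 0.16 (adjusted p = 0.328, edgeR) with block and offset. Gphn, the scaffold gephyrin, picked after its values were seen, was at 40.7 ± 3.50 and 51.8 ± 5.90 CPM and was not called by the edgeR test with group only (adjusted p = 0.158) or with the block (adjusted p = 0.0264).

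Of 12 genes that move GABA-A receptors to and from the membrane, 0 were called with group only (2 higher and 3 lower at an unadjusted p under 0.05, and 1 lower by DESeq2), and 2 were called higher and 3 lower with the block. The most abundant was the motor gene Kif5a, at 5820 ± 912 CPM on polyribosomes and 8319 ± 2275 CPM in total RNA. Under the block Kif5a fell by 0.49 on the log2 scale (adjusted p = 0.00301, edgeR). The median of the list was -0.02.

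Genes of GABA synthesis, transport and breakdown had a higher median, 0.40 over the 8 tested. With group only 0 were called, with 4 higher and 2 lower at an unadjusted p under 0.05 and 2 higher by DESeq2, and the block called 4 higher and 2 lower. Slc6a11, the astrocytic transporter GAT-3, stood at 560.1 ± 24.05 CPM in the polyribosome group and 357 ± 48.0 CPM in the total group (log2 fold change 0.65 under the block, adjusted p = 1.23e-05, edgeR).

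Within the same list, the genes of GABA synthesis differed in sign from the vesicular transporter, a contrast picked after the values were seen. Gad1 and Gad2, the GABA-synthesizing enzymes, were at 87.4 ± 10.4 and 48.0 ± 4.52 CPM on polyribosomes and at 116 ± 18.6 and 75.2 ± 7.17 CPM in total RNA. Under the block they fell by 0.39 and 0.65 on the log2 scale (adjusted p = 0.00851 and 2.11e-05, edgeR). With block and offset neither was called, at -0.29 and -0.34 (adjusted p = 0.0438 and 0.0219, edgeR). Slc32a1, which loads GABA into vesicles in the same neurons, was at 138 ± 36.6 CPM on polyribosomes and 67.8 ± 19.5 CPM in total RNA, and rose by 1.03 under the block (adjusted p = 1.12e-10, edgeR) and by 0.60 with block and offset (adjusted p = 1.83e-05, edgeR). Over the whole list, block and offset called 5 higher and 0 lower.

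In the remaining lists of receptors, calls with group only were 1 of 6 GABA-B genes, 0 of 8 genes of the chloride gradient, 0 of 3 glycine receptor genes and 1 of 10 ionotropic glutamate receptor genes. The GABA-B gene was Kctd16, an auxiliary subunit, at 14.1 ± 1.85 CPM on polyribosomes and 26.2 ± 0.550 CPM in total RNA (log2 fold change -0.88, adjusted p = 0.00965, edgeR). The glutamate receptor gene was Grin2c, an NMDA receptor subunit, at 204 ± 29.0 and 117 ± 10.5 CPM (0.81, adjusted p = 0.00965, edgeR). DESeq2 also called Grin2c (0.83, adjusted p = 3.52e-04) and did not call Kctd16 (-0.87, adjusted p = 0.0108). The median log2 fold changes were -0.04 for the GABA-B list, -0.06 for the chloride gradient, 0.08 for the glycine receptor and -0.06 for the glutamate receptors. Of the chloride genes, 2 were higher and 2 lower at an unadjusted p under 0.05 and DESeq2 called 1 lower, while of the glycine receptor genes 0 did either and DESeq2 called 0. Slc12a5, the chloride exporter KCC2 that sets the direction of the GABA-A current, was at 1203 ± 229 CPM on polyribosomes and 877 ± 94.1 CPM in total RNA. With the block its log2 fold change was 0.44 (adjusted p = 0.00306, edgeR), and with block and offset it was 0.28 and was not called (adjusted p = 0.0735, edgeR).

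**Figure D4:**
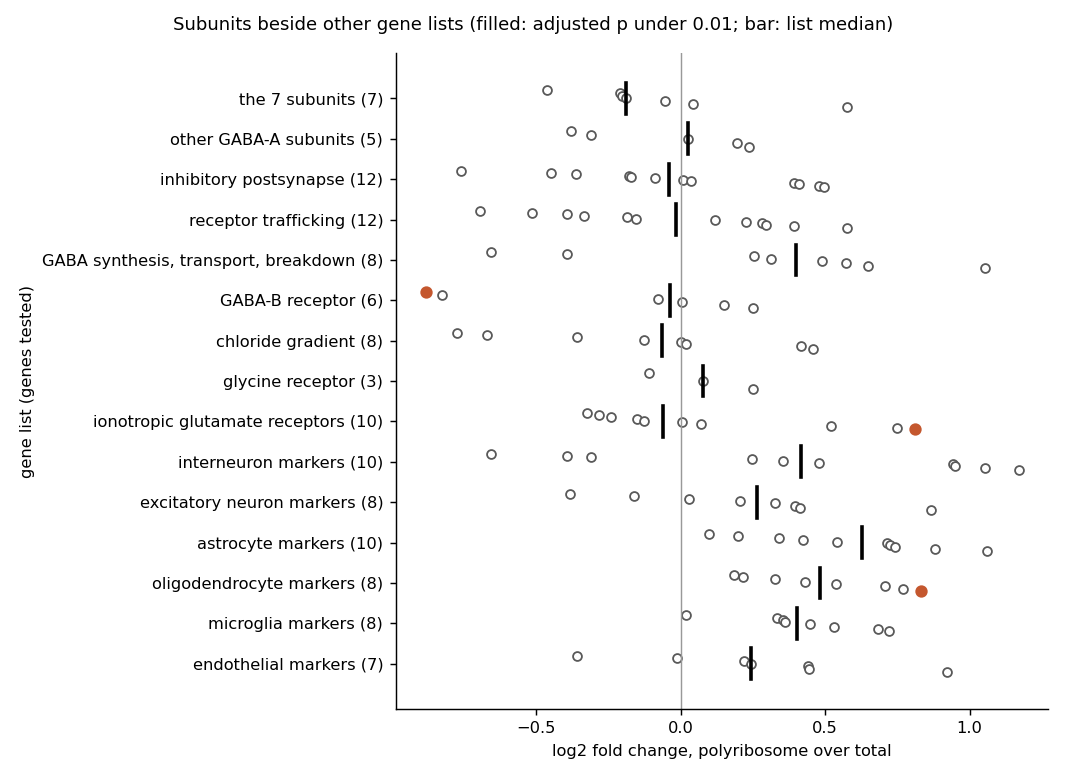
Log2 fold change (polyribosome over total, group only) of each tested gene in the 7 subunits and in 14 other gene lists, with filled points for an adjusted p under 0.01 and a bar at each list median. The subunits have a median of -0.19, and the astrocyte markers lie at 0.63 with all 10 genes above 0.

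Marker genes of the cells that express these receptors and of other cells were measured in the same libraries. Every marker list was detected, with 0 markers at 0 in all libraries. The list of excitatory neuron markers, which also holds broader neuronal genes such as Snap25 and Syn1, had a median log2 fold change of 0.26. With group only 0 of 8 were called (3 higher at an unadjusted p under 0.05, and 1 by DESeq2). The block called 3 higher, and block and offset called 2 higher. Interneuron markers had a median of 0.42, with 0 of 10 called with group only (5 higher and 2 lower at an unadjusted p under 0.05, and 3 higher by DESeq2), 5 higher and 2 lower with the block, and 6 higher and 0 lower with block and offset. Their summed level was 1326 to 2297 CPM on polyribosomes and 1042 to 1302 CPM in total RNA.

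Markers of glia were higher on polyribosomes by median. All 10 astrocyte markers had positive log2 fold changes with a median of 0.63, and their summed level of 45164 to 49650 CPM on polyribosomes did not overlap with 34697 to 40594 CPM in total RNA. With group only 0 of these 10 were called, with 7 at an unadjusted p under 0.05 and 4 by DESeq2, and with the block 7 were called higher. Block and offset called all 10 higher, where 9.08% of all genes tested were called higher. Of 8 oligodendrocyte markers 1 was called with group only, the tight junction gene Cldn11 (672 ± 26.8 CPM against 377 ± 37.1 CPM, 0.83, adjusted p = 0.00751, edgeR), and 5 with the block. Block and offset called 4 of the 8 higher and 0 lower. The oligodendrocyte list had a median of 0.48 and summed to 11168 to 15031 CPM on polyribosomes and 8028 to 11179 CPM in total RNA.

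Microglia markers had a median of 0.40, with 0 of 8 called with group only (3 at an unadjusted p under 0.05, and 0 by DESeq2) and 4 with the block, and summed to 939 to 1082 CPM on polyribosomes and 597 to 839 CPM in total RNA. With block and offset 4 of these 8 were called higher and 0 lower. Endothelial markers had a median of 0.24, with 0 of 7 called (1 at an unadjusted p under 0.05, and 0 by DESeq2). The block called 1 of them, and block and offset called 0. Their sums overlapped, at 284 to 524 CPM and 306 to 333 CPM. The summed levels of the astrocyte, microglia and interneuron markers were higher on polyribosomes without overlap. Those of the excitatory, oligodendrocyte and endothelial markers overlapped between the groups. The part of these marker levels in the values of Gabrd and Gabra4 was not tested.

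The levels of the 7 subunits over the 6 libraries were summarised as the mean of their standardized log2 CPM. This mean was compared with 6270 tested genes of at least 100 counts on average. The 5 genes most like this mean were the palmitoyltransferase gene Zdhhc17 (r = 0.99), the serotonin receptor gene Htr2a (0.99), the calcium sensor gene Ncald (0.98), the phosphatase gene Ppp2cb (0.98) and the AMPA receptor gene Gria3 (0.98). Here r is Pearson's correlation over 6 libraries that differ in depth and were taken as pairs from shared preparations, given as a description. Within the 7, Gabra3 and Gabrb2 were most alike (r = 0.95), and Gabra4 and Gabrd were most opposed (r = -0.75). With the other members Gabrd correlated at -0.75 to 0.32, so the mean is not a pattern that all 7 follow.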

How the data were processed

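The authors depleted ribosomal RNA, made strand-specific libraries, mapped reads with STAR 2.5.2b to GRCm38 and took gene counts from the basic set of Gencode vM6. They deposited whole-number counts per protein-coding gene without normalization, which were used here. The same table holds the authors' own DESeq2 comparison, which was not used.

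From the counts, edgeR 4.0.16 (R 4.3.3) was run with TMM normalization, filterByExpr, a quasi-likelihood test of the group term alone and Benjamini-Hochberg adjustment, at a threshold of 0.01. The pipeline was tested on simulated data, where 56.5% of genes changed 2-fold were recovered among 12147 genes with 0 false calls. Alternatives were DESeq2 1.42.0, other normalizations, no filter, a threshold of 0.05, the replicate number as a block, GC content and transcript length as an offset (splines with 5 degrees of freedom, values for 99.9% of the genes tested) and leaving out each library.

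Same-numbered libraries were taken as aliquots of the same pool, which was inferred from library titles and column names and is not stated in the methods. After subtraction of the group means, same-numbered libraries correlated at 0.37, 0.26 and 0.38 across genes. Exon lengths, GC content, strands and sequences are from GENCODE vM21 (GRCm38). Coordinates are those of the deposited table, from which the extent of Gabra5 in vM21 differs slightly. Named genes were the 7 subunits, the other GABA-A subunits, list genes past the threshold with up to 4 others of the highest CPM per list, and the 5 genes most alike, of which some are not reported here. The members and lists were chosen with earlier results of these data known.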

Additional observations from a re-analysis of the deposited data

How the results depend on the processing

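Over 13 alternatives, the 7 subunits kept their side of the threshold in 88 combinations and came to pass it in 3 (Gabrd and Gabra4 with the replicate block, Gabra2 with block and offset). The block changed no other call among the 7. Members called higher numbered 1 with the block and 1 with block and offset, and members called lower 1 with the block; when each library was left out, both counts stayed at 0. The median log2 fold change of the 7 was 0.18 with block and offset, 0.22 with the offset alone, and -0.19 to -0.026 (the latter without total replicate 1) without one library. Scaling by library totals shifted the median of all genes by -0.11, and relative to it the 7 stood at -0.19. Under that scaling Gabra2 went from 0.04 to -0.06, short of any call.

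Over all genes, calls were 321 higher with DESeq2, 42 with library totals, 476 higher and 566 lower without a filter, 1441 and 1622 with the block, 1113 and 883 with block and offset, 31 and 93 with the offset alone, and 799 and 1085 at an adjusted p under 0.05. Leaving out a library gave 0 to 61 higher and 22 to 208 lower, the fewest without total replicate 2. The log2 fold change of Gabrd then ranged from 0.44 (without polyribosome replicate 3) to 0.75, and that of Gabra4 from -0.64 to -0.26. The cause of these shifts was not tested. Precision is limited by 3 libraries per group and by the depth of total replicate 3, where Gabrd had 60 counts. Levels per kb with the longest transcript in place of merged exons moved by less than the SD between libraries for each of the 7.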
